A study of Mus musculus with 4 samples.

Results

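Genes that mark alveolar type I cells were measured by RNA-seq in MLE12, a mouse lung epithelial cell line. The 10 genes are Ager, Hopx, Aqp5, Cav1, Cav2, Pdpn, Emp2, Clic5, Akap5 and Rtkn2, chosen by name as markers of this cell type, and all 10 were found among the 18018 genes of the deposited table. The samples were 2 of lamin B1 KD MLE12 cells and 2 of control MLE12 cells, grown with puromycin at 2 µg/ml. The study made its stable lines by lentiviral delivery of shRNAs and kept them in this drug. Neither the shRNA of the KD libraries nor the origin of the replicates, from separate cultures or from 1, was found in the labels or methods. MLE12 cells were derived from lung tumors of mice in which the surfactant protein C promoter drives a viral large T antigen, so the line stems from type II-like cells and is transformed. Both groups share this background.

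The value used here is the authors' mean level of each gene, the mean over all 4 libraries of read counts divided by size factors, here the mean level. It pools lamin B1 KD and control cells, and a gene that differed between them would lie between both groups. The fold change and p-value columns of the authors' own comparison were not used. No difference between lamin B1 KD and control cells is therefore given, no SD or n belongs to any level, and the depth of single libraries is unknown. Of the listed genes 17906 have a mean level, which runs up to 179696 with a lowest value of 1.16 and a median of 277. The table thus holds no gene with a mean level of 0, though low values may rest on few reads. A gene that is missing, or is among the 112 listed with no mean level, is described as not listed and not as absent. A percentile is the percentage of these genes with a lower value. In bulk RNA a smaller share of cells with a transcript and less of it per cell cannot be told apart.

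Alveolar type I cells are the thin, flat cells that cover most of the gas exchange surface of the lung. They arise from common progenitors with the cuboidal type II cells, which make surfactant, and after injury type II cells can become type I cells. Their markers fall into groups by role. Caveolin genes build caveolae, which are small pits of the membrane, aquaporin and chloride channel genes serve water and ion movement, and Ager, Pdpn and Emp2 encode surface proteins. Hopx encodes a homeodomain protein that does not bind DNA itself, Akap5 a scaffold for protein kinase A, and Rtkn2 a protein of the rhotekin family, which acts with small GTPases.

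To show the start regions of these genes, promoters of GRCm38 from RefSeq were used, in which 9 of the 10 genes matched by symbol, with 11 start sites. Runs of letters were searched on both strands of the 250 bases before each start. The GC box, with the letters GGGCGG, is bound by Sp1 family factors and stood before 6 of the 11 starts, and before 32.7% of all 32851 starts in the table. The CCAAT box stood before 5 of the 11 starts, and before 33.8% of all. The letters TATAAA, searched for the TATA box, stood before 1 start, of Cav1, and before 12.4% of all. In Cav1 they lie on the opposite strand, near the far end of the window and not close to the start. The TEAD factor motif, searched as GGAATG, stood before 0 of the 11 starts, and before 12.6% of all. The ratio of observed to expected CpG was above the median of all promoters (0.37) at 9 of the 11 starts. It was highest at Aqp5 (1.01, percentile 94.6) and lowest at Ager (0.15, percentile 22.2), followed by Pdpn (0.17). A match is a run of letters and shows no binding. The 4 sequences below are those of Emp2, which has the highest mean level of the 10 before correction for its long exons, of the neighbouring pair Cav1 and Cav2, and of Ager, whose start region is the poorest in CpG. Each is printed 5′ to 3′ in the direction of its gene up to the base before the start, with GC boxes of either strand in capitals. Emp2 lies at chr16:10313969-10314218 (minus strand), Cav1 at chr6:17306085-17306334 (plus), Cav2 at chr6:17280935-17281184 (plus) and Ager at chr17:34597600-34597849 (plus).
Emp2: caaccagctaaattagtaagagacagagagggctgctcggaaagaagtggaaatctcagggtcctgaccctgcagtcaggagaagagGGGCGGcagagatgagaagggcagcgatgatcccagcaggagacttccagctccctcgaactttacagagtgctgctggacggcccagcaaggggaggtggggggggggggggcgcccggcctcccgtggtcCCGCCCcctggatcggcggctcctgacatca
Cav1: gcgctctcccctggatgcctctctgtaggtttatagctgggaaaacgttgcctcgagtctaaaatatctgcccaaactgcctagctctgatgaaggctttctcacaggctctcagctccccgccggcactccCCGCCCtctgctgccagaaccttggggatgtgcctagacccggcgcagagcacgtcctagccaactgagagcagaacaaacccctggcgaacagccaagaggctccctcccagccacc
Cav2: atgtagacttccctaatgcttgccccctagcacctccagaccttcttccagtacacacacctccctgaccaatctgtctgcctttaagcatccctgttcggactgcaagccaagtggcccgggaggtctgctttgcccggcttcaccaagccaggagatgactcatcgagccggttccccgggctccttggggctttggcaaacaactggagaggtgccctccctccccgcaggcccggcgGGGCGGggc
Ager: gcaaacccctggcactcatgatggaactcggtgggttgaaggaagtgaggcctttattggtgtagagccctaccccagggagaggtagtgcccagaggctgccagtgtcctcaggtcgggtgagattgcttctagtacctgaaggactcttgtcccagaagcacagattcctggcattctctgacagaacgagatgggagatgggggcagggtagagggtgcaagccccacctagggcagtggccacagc
The first letters of the GC boxes of Emp2 stand 163 and 31 bases before its start. That of Cav1 stands 118 bases and that of Cav2 9 bases before the start, and Ager has none in this window.

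To determine how strongly type I genes are expressed in these cells, the 10 genes were placed among all genes of the table. They were spread from abundant to rare, with mean levels between 80.4 and 17684 and a median of 1583. All 10 passed the minimum mean level of 2 that the study used, as did 92.8% of all genes. By the mean level 9 lay above the median of all genes and 6 above the upper quartile of 1321. The 4 genes Emp2, Cav1, Aqp5 and Cav2 made up 88.5% of the summed mean level of the 10, and the 10 together 0.20% of the sum over all genes.

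**Figure D1:**
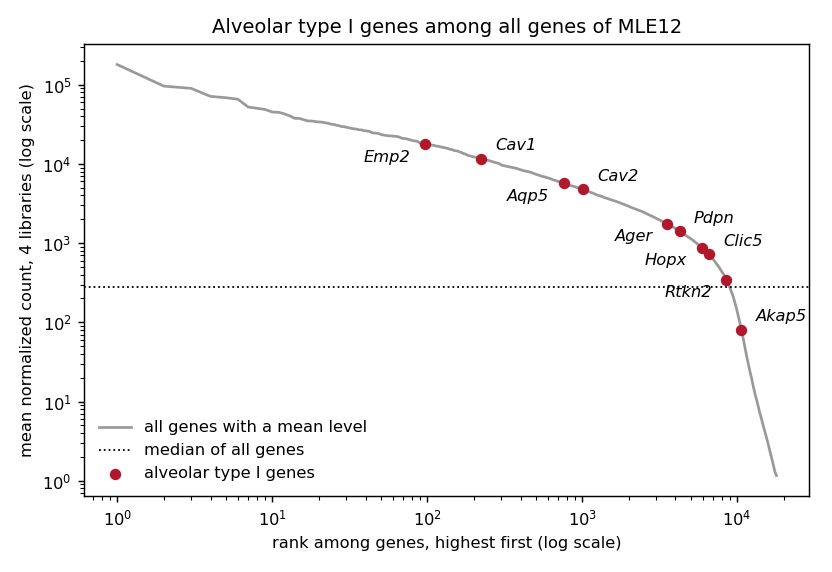
Mean normalized count over the 4 libraries (log scale) against the rank among all genes of the table (log scale, highest first). Red points are the 10 alveolar type I genes, the grey line all genes and the dotted line their median of 277, and of the 10 genes only Akap5 (80.4) lies below it.

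The mean levels and their sum are not corrected for transcript length, and longer transcripts give more reads. Genes were therefore ranked against each other per kilobase of exon. Lengths were taken from GENCODE M21 on GRCm38, the assembly of mm10, with the exons of all transcripts of a gene merged. Per kilobase the order was Cav1, Aqp5, Emp2, Cav2, Ager, Pdpn, Hopx, Clic5, Rtkn2 and Akap5, with a 286-fold range. No spread between libraries is known, so neighbours in this order cannot be ranked by their error. Aqp5 was 1.08 times Emp2 and Ager 1.05 times Pdpn, and these pairs changed places with other measures of length. By coding length 6 of the 45 pairs of genes stood in another order, and Hopx stood above Pdpn and Ager. The largest steps by merged exons were those of Hopx over Clic5 (6.99-fold) and of Rtkn2 over Akap5 (5.28-fold). Both kept their direction with each of the 4 lengths tried. The mean levels of Hopx (872) and Clic5 (722) were close, and their merged exons hold 1516 and 8782 bases, so the size of that step rests on length. The median over the 10 genes was 798 per kilobase, at percentile 90.8, against 71.9 over all genes.

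**Figure D2:**
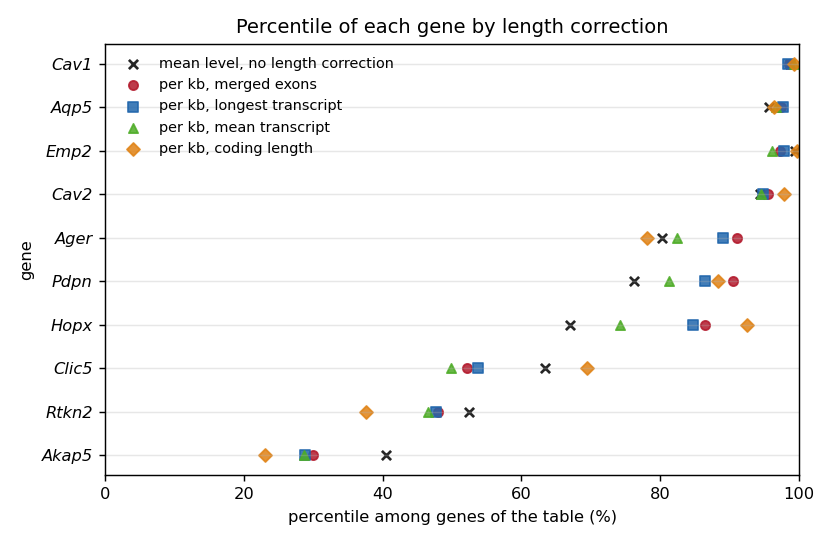
Percentile of each alveolar type I gene among all genes of the table, by its mean level (crosses) and per kilobase of 4 measures of length (coloured symbols). Cav1, Aqp5, Emp2 and Cav2 stay above percentile 94 with each, while Clic5 lies between percentiles 49.9 and 69.4 per kilobase.

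Cav1 and Cav2 were both abundant. Cav1 encodes caveolin-1, the protein needed to form caveolae in most cells, and Cav2 encodes its partner caveolin-2. The mean level of Cav1 was 11599, which is 3368 per kilobase and percentile 98.6. That of Cav2 was 4754, or 1426 per kilobase and percentile 95.6. Per kilobase Cav1 was 2.36 times Cav2, and between 2.22 and 3.87 times with the other lengths. The pair lies on the plus strand of chromosome 6, Cav2 from 17281185 to 17289115 and Cav1 from 17306335 to 17341452, with 17219 bases between them. Among the 9 genes of caveolins, cavins and their helpers 8 were listed, with a median at percentile 95.5 per kilobase. Sdpr (cavin-2) stood at 5945 and Ptrf (cavin-1), which caveolae need as well, at 2037 per kilobase. Ehd2, an ATPase at the neck of caveolae, was at 1380 per kilobase. The muscle members stood apart, with Murc (cavin-4) at 3.09 per kilobase and Cav3 not listed.

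Emp2 had the highest mean level of the 10, but not the highest level per kilobase. It encodes epithelial membrane protein 2, a tetraspan membrane protein found in lung epithelium. Its mean level of 17684 ranked 97th of all genes and was 63.9 times the median. Because its merged exons are long (8644 bases), it stood at 2046 per kilobase, percentile 97.2. The gene occupies bases 10281749 to 10313968 of chromosome 16, on the minus strand. A stretch of 147 bases, 2.79% of its longest transcript, is nearly identical (95% identity over at least 100 bases) to parts of 42 other genes, so that a small part of its reads may be shared. The other 9 genes had no such copy, apart from the antisense overlaps of Hopx and Rtkn2. Within the family, Emp1 was higher than Emp2 per kilobase (4132 against 2046), by all 4 lengths. Emp3 stood at 2421 per kilobase, but Emp2 was up to 6.46 times Emp3 with other lengths. Pmp22, a myelin protein that is also made outside of nerves, stood at 945 per kilobase. Lim2 of the lens was not listed.

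Aqp5 carried most of the aquaporin transcripts. Aquaporin-5 is the water channel of the apical membrane of type I cells. Its mean level was 5719, or 2201 per kilobase, which is percentile 97.4. The gene lies on chromosome 15 from 99590782 to 99594829. Aqp5 made up 91.0% of the summed level per kilobase of the 6 aquaporin genes listed, and between 91.0% and 94.8% over the 4 lengths. Aqp1, the aquaporin of lung capillaries, stood at 181 and Aqp3, of airway basal cells, at 32.3 per kilobase. Aqp5 was 12.1 times Aqp1, and up to 24.9 times with other lengths. It was 68.1 times Aqp3, and up to 107 times with other lengths. The rest of the family was near the bottom of the table, with at most 1.68 per kilobase for Aqp11, Aqp2 and Aqp7, or was not listed (6 of 12 genes, among them Aqp4).

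Clic5 was near the middle of all genes. It encodes a chloride intracellular channel protein that links membranes to the actin cytoskeleton. Its mean level was 722, which is 82.2 per kilobase and percentile 52.2, and the percentile depended on the length used. It lies on chromosome 17 from 44188584 to 44280172. Its listed relatives were all higher per kilobase, with 2277 for Clic1, 1310 for Clic4 and 753 for Clic3, and Clic6 was not listed. The size of these gaps depended on length. Clic1 was 27.7 times Clic5 by merged exons and 5.91 times by coding length. Clic3 was 9.16 times Clic5 by merged exons but 1.12 times by coding length, and their mean levels (762 and 722) were close. Clic4 was 15.9 times Clic5, and between 11.8 and 17.0 times with the other lengths. Clic5 thus gave 1.86% of the summed level per kilobase of the 4 listed genes, and at most 5.04% by coding length.

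**Figure D3:**
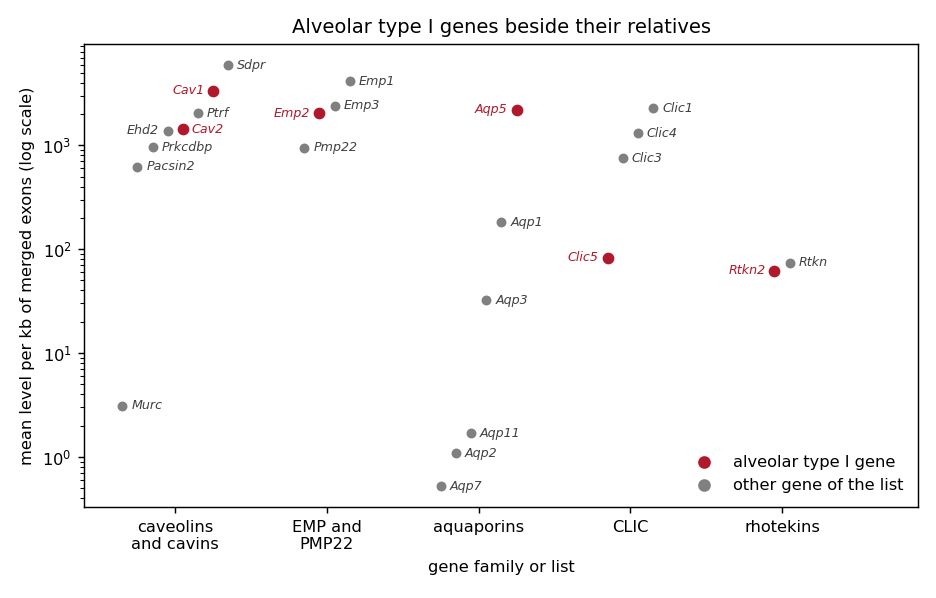
Mean level per kilobase of merged exons (log scale) of the alveolar type I genes (red) and of other genes of the same family or list (grey). Aqp5 (2201) lies far above the other aquaporins, Cav1, Cav2 and Emp2 lie among abundant relatives, and Clic5 (82.2) lies below the other CLIC genes.

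Ager and Pdpn, which encode the classical surface markers, were at similar levels. Ager encodes RAGE, the receptor for advanced glycation end products, which sits at the basal side of type I cells. Its mean level was 1752, or 819 per kilobase and percentile 91.1. It lies on chromosome 17 from 34597862 to 34600936 and has 13 annotated transcripts, the most of the 10 genes. With the mean transcript length it was at percentile 82.5 and by coding length at 78.1. Of 7 genes of proteins reported to bind RAGE 5 were listed, and these had their median at percentile 92.4 per kilobase. By the mean level the median was at percentile 90.6, and at 59.0 with the unlisted genes set lowest. S100a6 stood at 14489, Hmgb2 at 7271 and S100a4 at 945 per kilobase, against 7.38 for S100b, while S100a8 and S100a9 were not listed. Pdpn encodes podoplanin, a mucin-like protein of the apical membrane that ties to the cytoskeleton through ezrin and moesin. Its mean level was 1413, or 778 per kilobase and percentile 90.4. It lies on chromosome 4 from 143267431 to 143299564. Of 7 genes of its partners 6 were listed, with a median at percentile 97.1. Cd9 (5071 per kilobase), Ezr (2963) and Msn (2535) led them. Clec1b, the receptor for podoplanin on platelets, was not listed.

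Hopx was lower than Ager and Pdpn except by coding length, where it stood at percentile 92.5, and 2 genes were rare or near the median. The mean level of Hopx was 872, or 575 per kilobase and percentile 86.5, on chromosome 5 from 77086988 to 77115121. Its exons share 412 bases (27.2%) with the antisense gene Hopxos, whose mean level was 4.62, and whether reads were counted by strand is not known. Of 7 genes of proteins that HOPX has been tied to or that act with it, 6 were listed with a median at percentile 89.4. Hdac2 stood at 960, Nkx2-1 at 938 and Hdac3 at 746 per kilobase, and Myocd was not listed. Rtkn2 had a mean level of 346, 1.25 times the median of all genes, and stood at 62.3 per kilobase, percentile 48.0. It lies on chromosome 10 from 67979570 to 68059740 and shares 216 bases of exon with the antisense gene Gm16212, which has no mean level. Rtkn, its relative, was close by merged exons at 73.8 per kilobase. With the mean transcript length Rtkn was 2.08 times Rtkn2, and the order of the pair turned with coding length. Akap5 was the rarest of the 10, with a mean level of 80.4, which is 11.8 per kilobase and percentile 29.9. It lies on chromosome 12 from 76324891 to 76334153. Of the 13 genes of its partners all were listed, with a median at percentile 74.0. Prkaca, a catalytic subunit of protein kinase A, stood at 1807, Ppp3r1, of calcineurin, at 632 and Dlg1 at 572 per kilobase. By the mean level 9 of the 13 lay above the median of all genes. The others were Prkar2b (46.8 per kilobase), Dlg4 (18.6), Adcy5 (15.1) and Adrb1 (7.08).

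To place the 10 genes in the cell line, further marker lists were described in the same way. A second list of 20 genes of type I cells had 18 members with a mean level, of which 14 lay above the median of all genes. Its median was at percentile 80.3 per kilobase. S100a6 (14489 per kilobase), Gprc5a (4460) and Vegfa (2144), the endothelial growth factor, led it, and Cldn18 and Mal2 were not listed. The type IV collagen genes Col4a3 and Col4a4 of the alveolar basement membrane stood at 537 and 539 per kilobase. The members below the median were Krt7 (34.1 per kilobase), Igfbp2 (25.8), Scnn1g (5.99) and Spock2 (2.42). Of 10 regulators tied to type I fate, 9 lay above the median of all genes, with Nkx2-1 at 938, Wwtr1 (TAZ) at 880 and Srf at 686 per kilobase. Yap1 and Tead1 stood at 393 and 367, and Klf5, the only regulator below the median, at 9.21. Among 10 genes of ion and fluid transport 8 were listed, with a median at percentile 83.7 per kilobase. Scnn1a of the epithelial sodium channel stood at 490 per kilobase, and Scnn1b was not listed.

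The label of the line, lung epithelium, was checked against markers of type II and other cells. Of 16 type II genes 11 were listed, with a median at percentile 73.4 per kilobase, against 90.8 for the 10 type I genes. No test of this difference was possible. The type II list was mixed, with Sftpb at 3145, Sftpc at 863 and Lpcat1 at 605 per kilobase. By the mean level 6 of the 11 listed genes lay above the median of all genes. The others had mean levels of 119 (Cd74), 14.7 (Lyz2), 11.2 (Napsa), 10.3 (Muc1) and 1.57 (Sftpa1). Sftpd, Lamp3, Slc34a2, Hc and S100g were not listed. Aqp5 stood at 2.55 times Sftpc and at 0.70 times Sftpb per kilobase, and the order against Sftpb turned with length, up to 1.31 times. With the 5 unlisted genes set lowest, the median percentile of the type II list by the mean level was 27.4, against 66.9 without them. With all 10 genes, the median percentile of the type I list was the higher by the mean level and per kilobase with each of the 4 lengths. Other backgrounds could not change this order, and setting unlisted genes lowest could lower only the type II list. Without Cav1, Cav2, Pdpn and Emp2 the order turned by the mean level, with the type I list at 65.2 and type II at 66.9. It also turned per kilobase of merged exons, at 69.3 and 73.4. It did not turn by coding length, where the middle genes left, Clic5 (69.4) and Ager (78.1), lay above the type II median of 54.6. Nor did it turn by the mean level with unlisted genes set lowest, at 65.2 and 27.4. Genes of the transitional state between both cell types were all listed (10 of 10), with a median at percentile 77.0. Among them Krt19 stood at 17086, Krt8 at 4865 and Lgals3 at 1585 per kilobase. By the mean level 4 of the 10 lay below the median of all genes, Itgb6 (44.8), Krt18 (12.9), Sfn (9.44) and Cldn4 (3.32).

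Several of the 10 genes are also made by other lung cells, above all Cav1, Cav2, Emp2 and Pdpn. Endothelial, lymphatic, leukocyte and airway markers were mostly low or not listed in MLE12. Mesothelial markers were not, with 4 of 4 above the median of all genes and Msln at 1278 per kilobase, and of 8 fibroblast genes Dcn stood at 2099 per kilobase while the other 7 lay below the median. The part of such cells or programs in the levels of the type I genes was not tested. Of 9 endothelial genes 5 were listed, with mean levels between 6.71 and 171 and a summed level of 218. Cdh5, Cldn5, Emcn and Tie1 were not listed, and Pecam1 had a mean level of 6.71. The highest 3 per kilobase were Tek (36.3), Egfl7 (3.87) and Kdr (1.63). Of 4 lymphatic genes Flt4 and Prox1 were listed, at mean levels of 67.1 and 2.91, and Lyve1 and Ccl21a were not. Of 7 leukocyte genes 3 were listed, Cd68, Csf1r and Itgam, with mean levels between 7.95 and 51.4, and Ptprc was not. Of 8 airway genes 4 were listed, with Muc5b (38.9), Scgb1a1 (11.7) and Foxj1 (5.62) as the highest per kilobase. By the mean level Muc5b (581) was the only airway gene above the median of all genes.

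**Figure D4:**
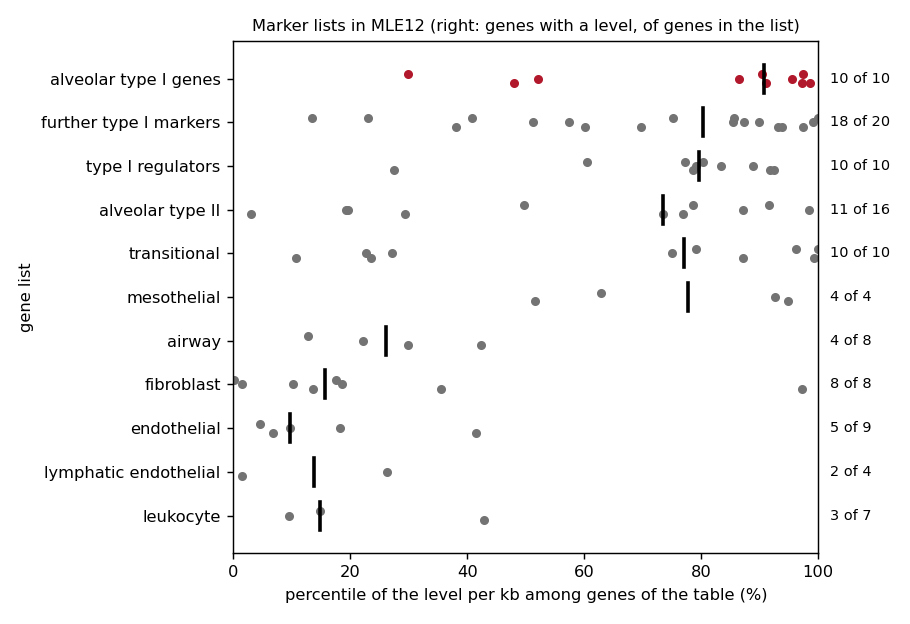
Percentile of the level per kilobase of each gene (points) in lists of marker genes, with the median of each list as a black bar and, at the right, how many genes of the list have a mean level. The alveolar type I genes (red) have their median at 90.8, and the endothelial, lymphatic and leukocyte lists have theirs under 15.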

How the data were processed

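RNA-seq of MLE12 cells was used (2 lamin B1 KD and 2 control libraries, assigned by the sample titles). Polyadenylated RNA, selected from 1 µg of RNA, was sequenced by Ion Torrent. According to the methods of the study and the submitters' processing notes, reads were trimmed by Reaper, aligned by STAR to the mm10 genome and normalized by DESeq2 by the authors. Not given in the sources used here are versions, the read counter and whether it used strand. The deposited table holds 1 signal per gene that was used, the authors' mean over the 4 libraries of counts divided by size factors. Its other columns hold the authors' log2 fold change, p-value and adjusted p of lamin B1 KD over control. They were not used, and since the mean pools both groups, no comparison of the groups was made and no test was run. The count test foreseen for values per library could not be fitted. Depth per library cannot be read from a mean.

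Percentiles, levels per kilobase and list medians were computed with Python 3.11.15, pandas 2.3.3, numpy 2.4.6 and scipy 1.17.1, and tested on simulated data. Gene models of GENCODE M21 matched 17683 of 17906 genes by identifier (98.8%). Copies were searched with BLAST 2.17.0, and figures drawn with matplotlib 3.10.9. Genes that the lists hold under newer symbols were matched by the older ones of the table (Ptrf, Sdpr, Prkcdbp, Murc and Slc9a3r1). The 10 genes and the 21 lists, with 175 genes in all, were chosen with earlier results of these data known. The naming rule was every gene of the 10, their relatives, and in each list up to 3 genes of highest level per kilobase. Others, such as Col4a3, Col4a4, Yap1, Tead1, Scnn1a, Aqp4, Murc and unlisted or low genes of the lists, were named after their values were seen. Some genes that the rule would name are not reported here. Alternatives were other backgrounds, minimum levels and measures of length, and, added after seeing the data, unlisted genes set lowest and the median per kilobase without Cav1, Cav2, Pdpn and Emp2. Of the alternatives, those between libraries were not run.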

Additional observations from a re-analysis of the deposited data

How the results depend on the processing

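The count of type I genes past a minimum mean level was 10 at minimums of 1, 2 and 10 and 9 at 100. Between 7 and 9 of the 10 lay above the median of the background with each background and length. The median percentile of the list, 78.2 by the mean level among all genes, was 76.5 among genes with a mean level of at least 2, 71.0 among those of at least 10 and 72.8 among protein-coding genes. Per kilobase it was 90.8 with merged exons, 87.8 with the longest transcript, 81.9 with the mean transcript length and 90.4 with the coding length. Without Cav1, Cav2, Pdpn and Emp2 it was 65.2 by the mean level and 69.3 per kilobase of merged exons. Of 80 alternatives for single genes 65 moved the percentile beyond its exact binomial 95% interval over genes, 14 of them to a higher value and 51 to a lower one. The background of all listed genes equals the main one, since 0 genes have a mean level of 0, so it could move nothing. Higher minimum levels could only lower a percentile. The interval reflects the number of genes and not the error of a level. Per kilobase, the percentile of Clic5 ranged most over the 4 lengths, by 19.5 points. No paired analysis was possible because the values used are means over all 4 libraries, and for the same reason no replicate could be left out and a test between the groups, with its other filters and scalings, was not run. All levels are limited by the unknown spread between libraries and the unknown depth.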

Other observations

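Markers of mesothelial cells, which line the lung, were present beside the alveolar genes. All 4 genes of the list lay above the median of all genes by their mean level. Per kilobase, Msln (mesothelin) stood at 1278, Upk3b (uroplakin 3b) at 970 and Wt1 at 157. The last gene, Lrrn4, was near the median of 277, with a mean level of 295, or 79.3 per kilobase. Of the fibroblast list 7 of 8 genes lay below the median, with mean levels of 1.40 for Col3a1, 4.34 for Col1a2 and 4.18 for Lum. The exception was Dcn, which encodes the proteoglycan decorin, with a mean level of 12256, at 2099 per kilobase and percentile 97.3. Col1a1 and Pdgfra stood at 19.9 and 3.63 per kilobase.

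The keratin genes of the transitional list were uneven. Krt8 stood at 4865 per kilobase, while Krt18, which encodes the usual partner of keratin 8, stood at 8.96, and Krt19, which can take that place, at 17086. The cause of the low value of Krt18 was not tested.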
